A study of Mus musculus with 27 samples.

Results

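The lysosomal genes described here are a list of 35 mouse genes that encode hydrolases, membrane proteins and helper proteins of the lysosome, together with Tfeb, a transcription factor that controls many of them. They were chosen by symbol and not by a cutoff on any measured value, but with earlier results of these data known. A gene was measured where the array held a row annotated with its symbol alone, and the row of highest mean was used where a gene had several. This gave 34 of the 35 genes, out of 32245 transcripts that carried signal. Glb1, which encodes beta-galactosidase, shares its row with another gene and was dropped.

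The study asked how the empty microglial niche is refilled after depletion, and 27 arrays of sorted mouse cells in 9 groups were used. All mice were on the C57BL/6 strain and experiments were started at 6 to 12 weeks of age. Cx3cr1CreER/+R26DTA/+ mice received tamoxifen (TAM) on 3 consecutive days, which switches on diphtheria toxin A in cells that use the Cx3cr1 promoter, and CD11b+CX3CR1hi cells of the CNS were sorted as F4/80low microglia (3 arrays at 4 weeks and 3 at 12 weeks) and F4/80hi macrophages (2 arrays at 4 weeks and 3 at 12 weeks). DTR microglia (2 arrays) came from Cx3cr1CreER/+R26DTR/+ mice that received TAM, then diphtheria toxin 3 weeks later, and were sorted 2 weeks after the toxin. Naive microglia (5 arrays) were CD11b+CX3CR1hi cells of naive mice or of Cx3cr1CreER/+ controls given TAM, so that the 6 CNS groups share the CX3CR1hi gate. Ly6Chi monocytes of the bone marrow (5 arrays), splenic red pulp macrophages (RPM, 2 arrays, CD45+F4/80hi) and intestinal macrophages (2 arrays, CX3CR1hiCD64+MHCII+) came from naive mice. Each sample was a pool of 2 to 5 mice. Among the 5 naive and the 5 monocyte arrays 3 were biological and 2 technical, and the labels do not say which, so the spread within these groups, and the p-values that use it, may be too small. In such bulk samples fewer cells of a type and less RNA per cell cannot be told apart.

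Lysosomes are acidic organelles in which hydrolases break down proteins, lipids, glycoproteins and glycosaminoglycans that arrive by endocytosis, phagocytosis or autophagy. Microglia take up cell debris and myelin, and inherited loss of single lysosomal enzymes, such as galactosylceramidase in Krabbe disease or sulfamidase in Sanfilippo syndrome, leaves undigested substrate in the brain. TFEB and its relatives bind an E-box in the promoters of many lysosomal genes, which allows these genes to be switched on together.

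Promoters are shown for the 3 members that differed between CNS groups (Galc, Sgsh and Gla) and for Lamp1, the measured member with the most copies of the E-box searched. The windows run from 250 bases before to 50 bases after the annotated start, 5′ to 3′ on the strand of the gene, and are from RefSeq on GRCm38.p6. Capitals mark TCACGTG on either strand.
Galc, chr12:98259410-98259709, minus strand: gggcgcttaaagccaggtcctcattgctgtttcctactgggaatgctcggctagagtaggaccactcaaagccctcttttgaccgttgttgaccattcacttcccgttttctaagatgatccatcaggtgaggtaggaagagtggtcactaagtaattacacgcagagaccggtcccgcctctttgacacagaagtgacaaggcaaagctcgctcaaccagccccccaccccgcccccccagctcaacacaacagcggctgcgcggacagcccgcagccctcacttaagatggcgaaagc
Sgsh, chr11:119355461-119355760, minus strand: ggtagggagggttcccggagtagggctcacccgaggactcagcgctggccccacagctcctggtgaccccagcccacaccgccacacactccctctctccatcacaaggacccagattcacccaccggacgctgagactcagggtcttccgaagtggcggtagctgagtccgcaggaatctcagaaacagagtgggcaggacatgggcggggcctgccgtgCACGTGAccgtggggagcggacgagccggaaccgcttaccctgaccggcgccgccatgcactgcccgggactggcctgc
Gla, chrX:134600956-134601255, minus strand: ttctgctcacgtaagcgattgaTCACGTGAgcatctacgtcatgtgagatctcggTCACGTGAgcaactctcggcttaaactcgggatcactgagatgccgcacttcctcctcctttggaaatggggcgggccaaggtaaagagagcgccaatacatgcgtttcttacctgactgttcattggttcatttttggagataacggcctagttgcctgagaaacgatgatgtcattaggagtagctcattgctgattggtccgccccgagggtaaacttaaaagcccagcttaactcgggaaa
Lamp1, chr8:13158911-13159210, plus strand: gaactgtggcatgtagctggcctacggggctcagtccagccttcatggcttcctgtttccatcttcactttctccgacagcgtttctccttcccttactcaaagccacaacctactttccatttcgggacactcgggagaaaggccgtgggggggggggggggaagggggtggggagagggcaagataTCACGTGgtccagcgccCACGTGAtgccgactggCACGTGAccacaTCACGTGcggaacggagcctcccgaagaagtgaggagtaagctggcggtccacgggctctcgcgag
TCACGTG, searched on both strands, was found in 3.77% of all 32851 promoters of this length. The table held promoters for 32 of the 34 measured members, and 9 of these genes had it (Lamp1, Cln3, Mcoln1, Gaa, Gla, Naglu, Arsa, Sgsh and Lgmn), in 9 of their 37 promoters, or 24.3%. It lay 29 bases before the start in Sgsh, and Gla held 2 such sites and Lamp1 held 4. The letters were not found in the window of Galc. These matches describe the letters of the windows and say nothing of binding in these cells.

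Values were log2 signals, with array medians of 5.06 to 5.23. The mean correlation between arrays of a group ranged from 0.969 to 0.986 over all transcripts tested. The mean signal of 6 microglia markers was 11.4 to 11.6 in naive microglia, 11.2 to 11.7 and 11.3 to 11.5 in F4/80low cells at 4 and 12 weeks, 11.1 to 11.2 in 4-week and 10.0 to 10.3 in 12-week F4/80hi cells, and 5.56 to 5.85 in monocytes. The mean of 8 neutrophil markers was 4.95 to 5.26 in naive microglia, but 9.71 on 1 of the 2 F4/80hi arrays at 4 weeks and 9.44 and 9.49 on 2 of the 3 F4/80low arrays at 4 weeks. It was 8.64 to 9.51 in the monocytes, and it was at most 5.50 in F4/80hi cells at 12 weeks. The mean of 5 monocyte markers was 7.46 on that F4/80hi array and 6.89 and 7.57 on those F4/80low arrays, against 5.02 to 5.45 in naive microglia. The remaining 4-week arrays also read above every naive array for the neutrophil markers. Their means were 6.65 on F4/80hi replicate 2 and 6.46 on F4/80low replicate 3. The mean of 5 B and plasma cell markers was 10.0 to 10.3 in intestinal macrophages and at most 7.06 in every other group.

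A pair of arrays stood apart together in the lysosomal genes. Naive microglia replicate 3 read highest of the 5 naive arrays for 20 of the 34 members, and F4/80hi replicate 2 at 4 weeks read above replicate 1 for 31 of 34. In 8 members both shifts exceeded 0.5 on the log2 scale. None of these counts was made over all transcripts, so they do not show that the shifts were particular to lysosomal genes. The median shift of naive replicate 3 from the other naive arrays was 0.13 for the members and 0.02 for all transcripts. Hexa, the alpha subunit of beta-hexosaminidase, was 11.24 on naive replicate 3 against 9.45 to 9.69 on the other naive arrays, and 11.31 on F4/80hi replicate 2 against 9.39 on replicate 1 at 4 weeks. Arsb, which removes sulfate from dermatan and chondroitin sulfate, was 11.24 on naive replicate 3 against 9.51 to 9.68, and F4/80hi replicate 2 exceeded replicate 1 by 1.20 at 4 weeks. Over all transcripts tested the deviations of these arrays from their group means correlated at 0.40, a description across genes, which are not independent replicates. In a group of 2 arrays the deviations are mirror images, so this value cannot tell which F4/80hi array stood apart. Replicate 1 was the array rich in neutrophil transcripts. Below, replicate 2 is called the array that stood apart as a label only. Calls that changed without naive replicate 3 and F4/80hi replicate 2 are given both ways. Where leaving arrays out leaves a group with 1 array, that array was assumed to vary like the other groups, which supply the spread.

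**Figure D1:**
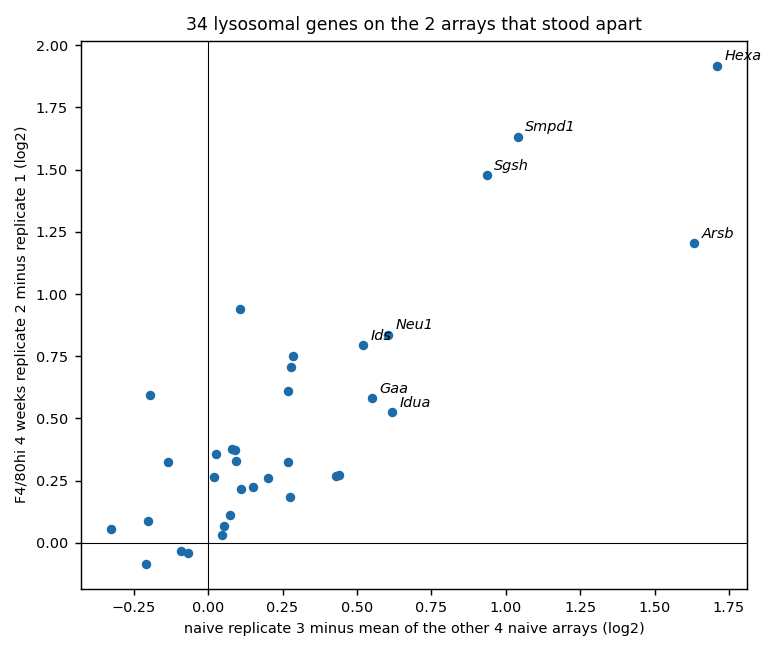
Each point is 1 of the 34 measured lysosomal genes. The x axis is naive replicate 3 minus the mean of the other 4 naive arrays and the y axis is F4/80hi replicate 2 minus replicate 1 at 4 weeks, both on the log2 scale. The 8 named genes exceed 0.5 on both axes, and Hexa is highest on both.

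The means of the 9 groups lay within 1 log2 unit of each other for 20 of the 34 members and for 62.9% of all transcripts. The means of the 6 CNS groups did so for 29 members and for 91.4% of all transcripts. In naive microglia Lgmn, an asparaginyl endopeptidase, had a signal of 13.17 ± 0.07 (SD, n = 5), and Tfeb a signal of 6.48 ± 0.26, although signals of different probes cannot be ranked as amounts of RNA. In all 17 comparisons together 13 members passed the call, an adjusted p under 0.05 in limma with a difference over 2-fold, in at least 1, and 21 passed it in none, where 31.1% of all transcripts passed it in at least 1. Differences below are fitted with a batch term, and so are not exactly the gaps between plain group means.

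**Figure D2:**
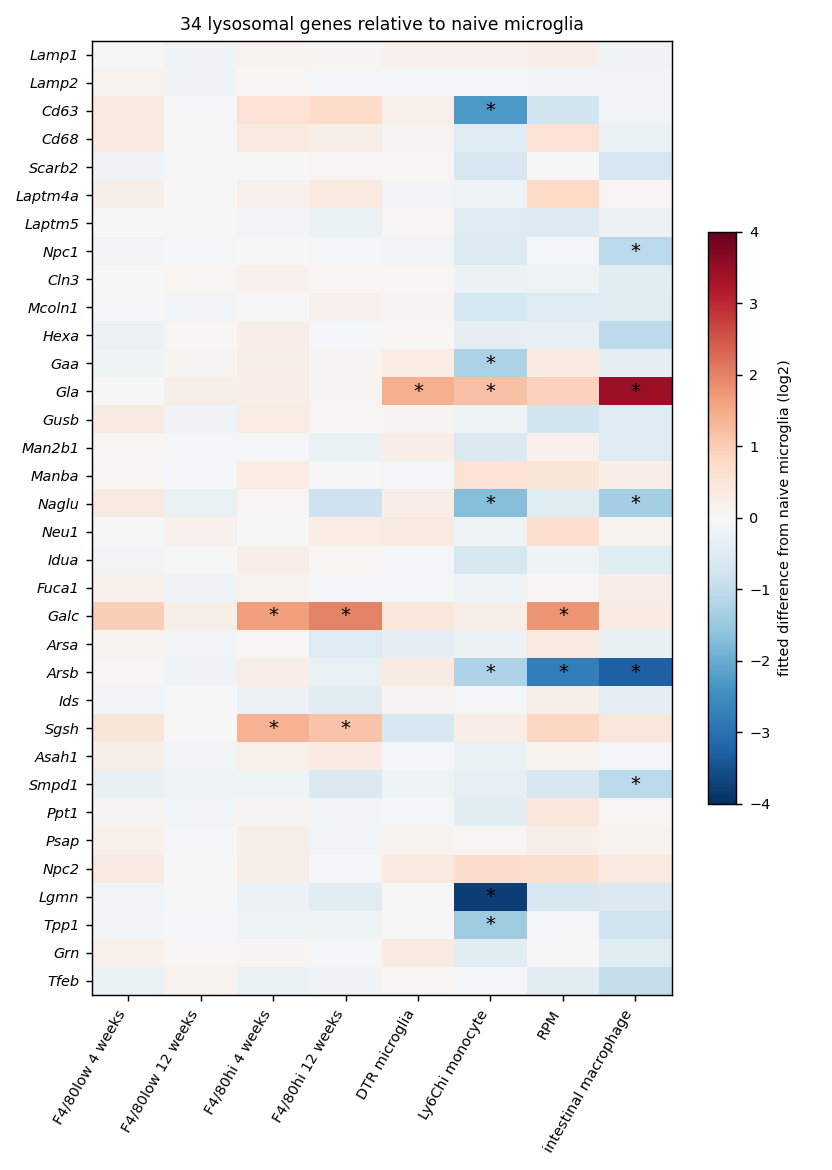
Fitted log2 difference of each of the 34 measured lysosomal genes (rows) from naive microglia in the other 8 groups (columns), red for higher and blue for lower than naive. Asterisks mark adjusted p under 0.05 with over 2-fold. Among the 5 CNS columns on the left the marked tiles are Galc and Sgsh in F4/80hi cells and Gla in DTR microglia.

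Among the CNS groups, Galc and Sgsh were higher in F4/80hi macrophages than in naive microglia at both times, and Gla was higher in DTR microglia. The Galc calls held in every alternative that was run, while the Sgsh and Gla calls were lost in several, as given below. At 12 weeks F4/80hi cells had 2 members higher and 0 lower of 34, where 1.34% of all transcripts were called higher and 1.65% lower, with a median member difference of -0.04 against 0.00 for all transcripts, and of 0.12 after quantile normalization. At 4 weeks they again had 2 higher and 0 lower, where 1.53% of transcripts were called higher and 1.01% lower, with medians of 0.14 and -0.03, or -0.01 and -0.05 without the pair of arrays that stood apart. F4/80low microglia had 0 members called at 12 weeks, where 0.115% of transcripts were called, and 0 at 4 weeks, where 1.00% were called. DTR microglia had 1 member higher and 0 lower, where 0.633% of transcripts were called higher and 0.121% lower. At adjusted p under 0.05 with any fold, 5 members passed in F4/80hi cells at 12 weeks, where 6.39% of transcripts did, and 1 in F4/80low cells at 4 weeks, where 1.87% did. These comparisons share the 5 naive arrays, so their values stand side by side and are not independent.

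The paper states that F4/80hi and F4/80low cells came from the same brains, and they were tested here as unpaired. F4/80hi macrophages set directly against F4/80low microglia at 12 weeks had the same 2 members higher, Galc and Sgsh, and 0 lower. Of all transcripts 1.23% were called higher and 1.28% lower. At any fold 4 members passed the adjusted p, where 5.29% of transcripts did. At 4 weeks the count was 0, where 0.440% were called, with 2 members called (Galc and Sgsh) when replicate 1 of the F4/80hi arrays, the one rich in neutrophil transcripts, was left out, which leaves 1 array, the replicate 2 that stood apart. From 4 to 12 weeks 0 members were called within F4/80hi cells, where 0.171% of transcripts were, and 0 within F4/80low cells, where 0.183% were. All 4-week arrays were in batch 2 and all 12-week arrays in batch 1. The change of the F4/80hi to F4/80low difference between the times was called for 0 members, where 0.118% of transcripts were. For Galc it was 1.07, with a 95% interval of 0.49 to 1.66 and an adjusted p of 0.223 in limma, and without F4/80hi replicate 2 at 4 weeks, which leaves 1 array, rich in neutrophil transcripts, 1 member, Galc, was called.

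**Figure D3:**
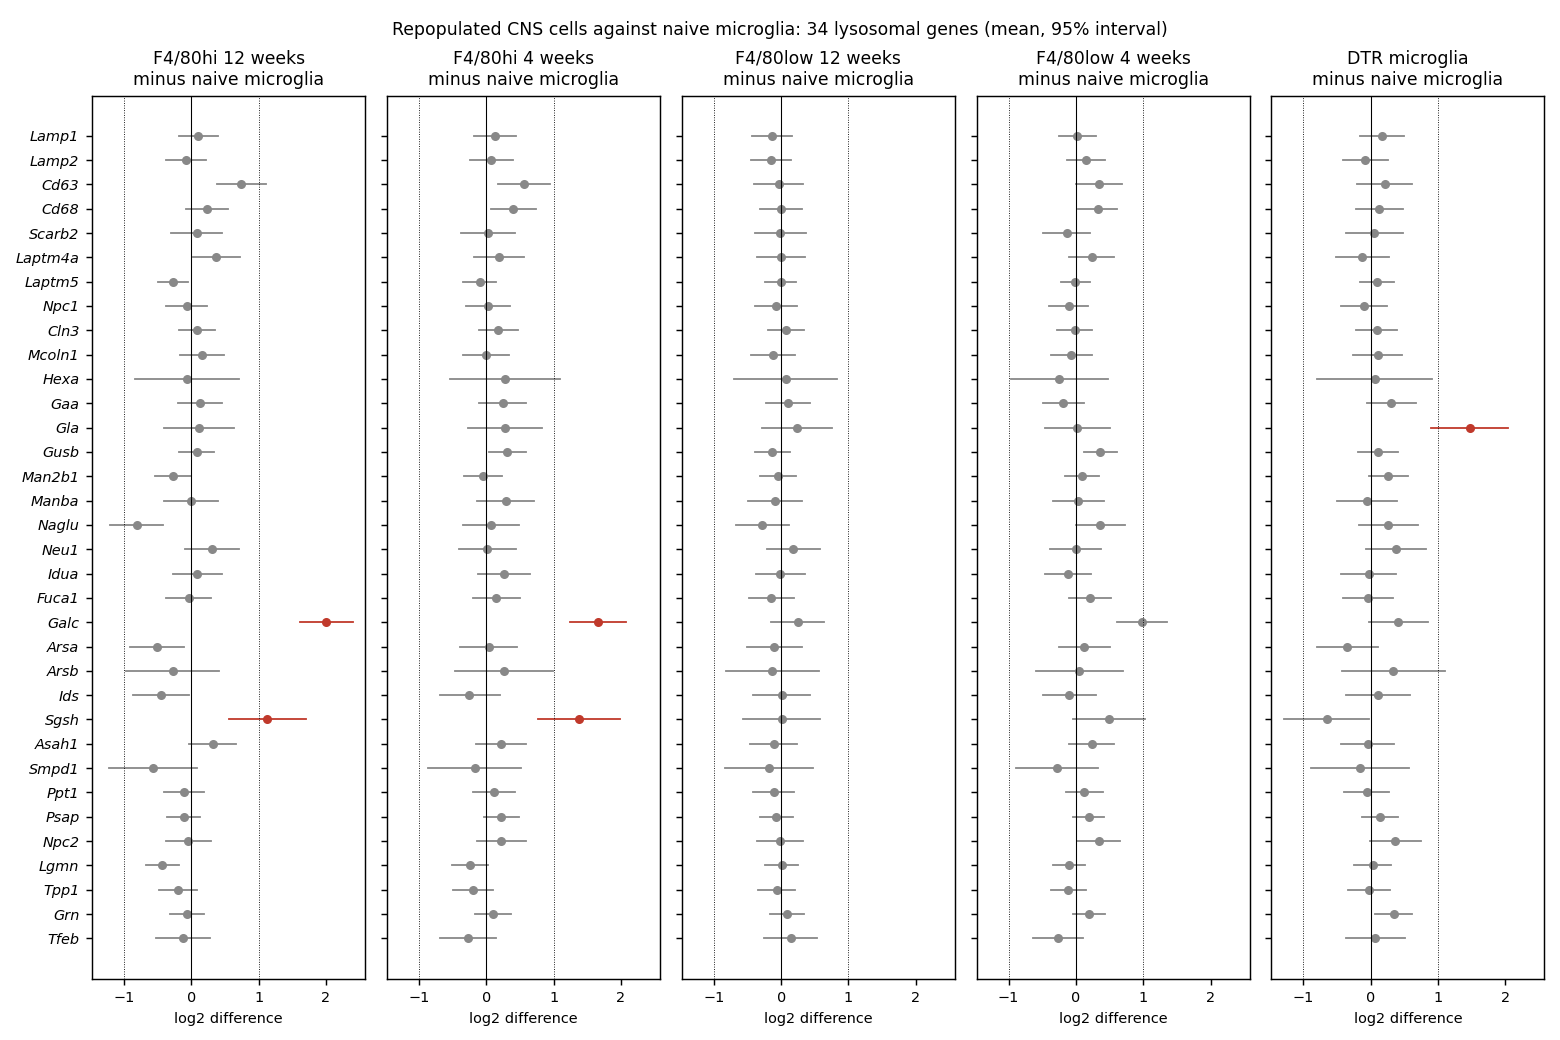
Log2 difference from naive microglia (points, with 95% intervals) of the 34 measured lysosomal genes in F4/80hi cells at 12 and 4 weeks, F4/80low cells at 12 and 4 weeks and DTR microglia, 1 panel each. Red marks adjusted p under 0.05 with over 2-fold, grey marks the rest and dotted lines mark 2-fold. Galc stands at 2.00 and 1.66 in the F4/80hi panels, and Gla at 1.47 in the DTR panel.

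Among the glycosidases, which remove sugars from lipids and glycans, Galc was higher in F4/80hi cells than in naive microglia at both times. Its enzyme, galactosylceramidase, splits galactose from the main glycolipid of myelin. Galc read 7.92, 7.90, 8.05, 8.09 and 7.85 on the 5 naive arrays and 10.01, 10.01 and 9.70 on the 3 F4/80hi arrays at 12 weeks. Both F4/80hi arrays at 4 weeks, at 9.19 and 10.13, were also above every naive array. The difference from naive microglia was 2.00 ± 0.19 (SE, adjusted p = 6.84e-08, limma) at 12 weeks and 1.66 ± 0.20 (adjusted p = 5.29e-06) at 4 weeks. The latter was 1.21 (adjusted p = 0.0025) without the pair of arrays that stood apart, which leaves F4/80hi replicate 1 alone, and 2.13 (adjusted p = 3.16e-07) without the arrays rich in neutrophil transcripts, which leaves replicate 2 alone. At 12 weeks Galc differed by 1.75 ± 0.19 (adjusted p = 5.84e-07) from F4/80low cells, which read 8.33, 8.11 and 8.03, and the groups did not overlap.

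F4/80low microglia at 4 weeks lay between these levels for Galc, with 8.68, 9.16 and 9.10. All 3 arrays were above every naive array, and the difference of 0.98 ± 0.18 (adjusted p = 0.00216, limma) fell just short of 2-fold. It was 1.10 (adjusted p = 0.00991), and so past 2-fold, without the arrays rich in neutrophil transcripts, which leaves 1 F4/80low array, past 2-fold also without F4/80low replicate 1 (1.14), naive replicate 3 (1.00) or naive replicate 4 (1.02), and had an adjusted p of 0.0929 among the arrays of the same batch. At 12 weeks the difference of F4/80low cells from naive microglia was 0.25, with a 95% interval of -0.15 to 0.64. Outside the CNS, Galc read 9.74 and 9.76 in RPM, 8.40 and 8.23 in intestinal macrophages and 8.06 to 8.43 in monocytes. It was thus lower in naive microglia than in RPM, by -1.75 ± 0.20 (adjusted p = 2.01e-07), and higher in F4/80hi cells at 12 weeks than in monocytes, by 1.75 ± 0.18 (adjusted p = 2.24e-08).

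Gla encodes alpha-galactosidase A, which removes terminal galactose from globotriaosylceramide and is the X-linked gene of Fabry disease. Its 2 promoter sites are shown above. Gla read 8.40 and 8.62 on the 2 DTR arrays and 6.66, 7.42, 6.86, 7.08 and 7.08 on the naive arrays, with no overlap. The difference was 1.47 ± 0.28 (adjusted p = 0.00519, limma), and its adjusted p was 0.104 without DTR replicate 2 (difference 1.36), 0.0507 without naive replicate 1 (difference 1.26), 0.0779 among the arrays of the same batch and 0.0984 among CNS arrays alone. The other repopulated groups read 6.51 to 7.70, which overlapped with the naive arrays. Intestinal macrophages read 10.55 and 10.33, and naive microglia were lower than these by -3.43 ± 0.26 (adjusted p = 2.31e-10). Naive microglia were also lower than monocytes, at 8.02 to 8.37, by -1.18 ± 0.19 (adjusted p = 2.18e-05), a difference of -0.91 and so under 2-fold after quantile normalization.

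**Figure D4:**
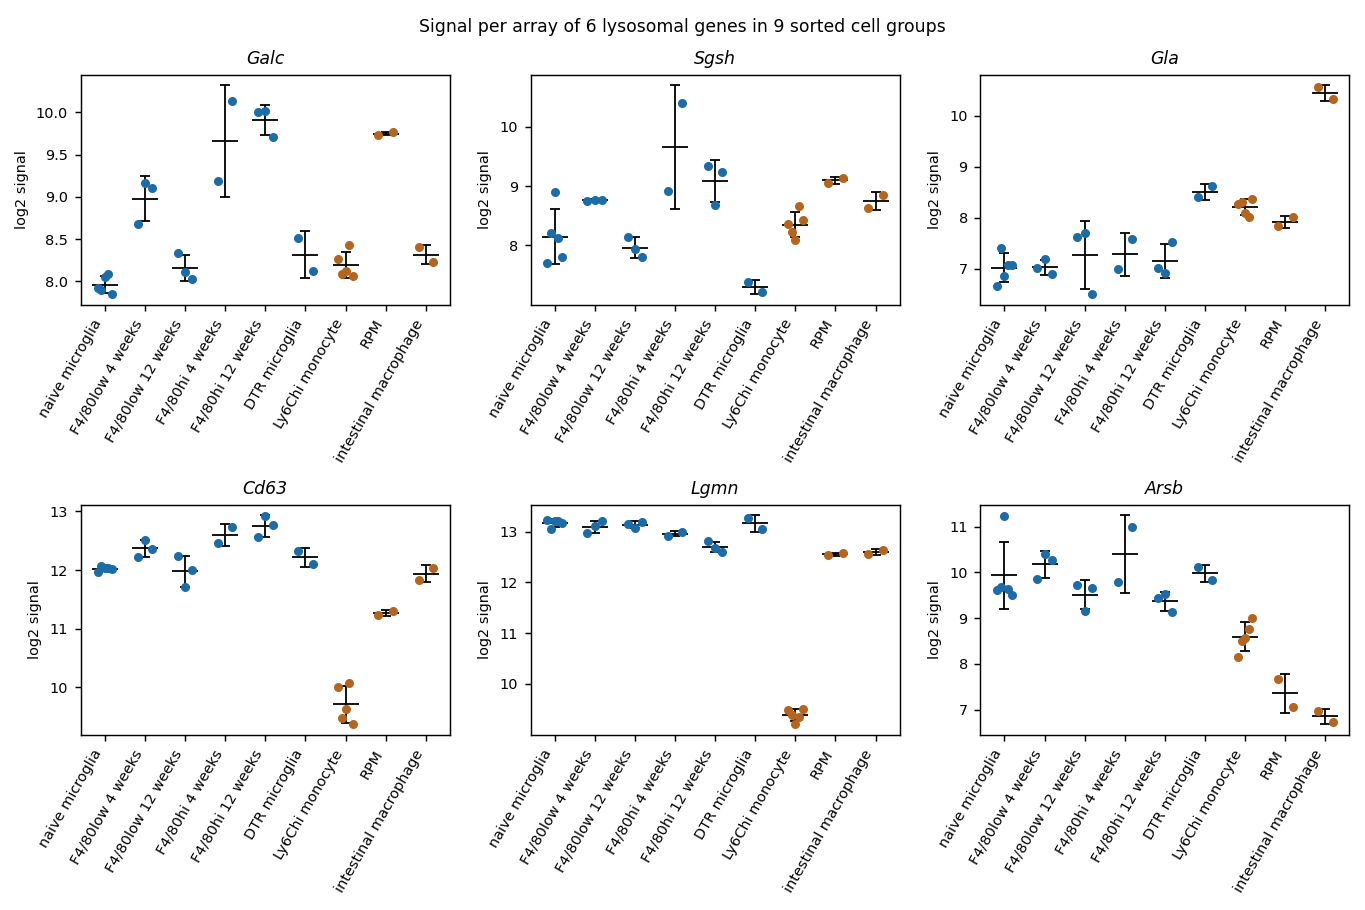
Log2 signal of Galc, Sgsh, Gla, Cd63, Lgmn and Arsb on each array (points), with group mean and SD (black), in the 6 CNS groups (blue) and in monocytes, RPM and intestinal macrophages (brown). Each panel has its own scale. All 5 F4/80hi arrays lie above all 5 naive arrays for Galc, and the naive point at 11.24 in the Arsb panel is replicate 3.

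Naglu, which trims heparan sulfate, was lower in F4/80hi cells at 12 weeks than in naive microglia. At 4 weeks it read 10.60 and 11.22, a difference of 0.07 (95% interval -0.35 to 0.48). It read 9.99, 9.86 and 10.32 at 12 weeks and 10.59 to 11.07 on the naive arrays. The difference of -0.82 ± 0.19 passed the adjusted p (0.00704, limma) at under 2-fold, and its adjusted p was 0.0752 among CNS arrays alone. Naglu was higher in naive microglia than in monocytes, by 1.71 ± 0.15 (adjusted p = 8.48e-10), and than in intestinal macrophages, by 1.36 ± 0.20 (adjusted p = 9.87e-06).

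The other glycosidases differed mainly from the reference cells. Gaa, the acid glucosidase of glycogen, was 9.30 to 9.96 in naive microglia and 8.08 to 8.35 in monocytes, a difference of 1.26 ± 0.12 (adjusted p = 7.22e-09, limma), or 1.17 without naive replicate 3, and RPM exceeded monocytes by 1.65 ± 0.18 (adjusted p = 7.64e-08). Man2b1, an alpha-mannosidase, had group means from 11.67 in monocytes to 12.47 in RPM, and Gusb, beta-glucuronidase, from 10.68 in RPM to 11.78 in F4/80low cells at 4 weeks. Neu1, a sialidase, ranged from 8.26 in monocytes to 9.23 in RPM, and Manba, beta-mannosidase, from 7.79 in F4/80low cells at 12 weeks to 8.51 in monocytes. Idua, which acts on heparan and dermatan sulfate, ranged from 6.73 to 7.73, and Fuca1, a fucosidase, from 10.32 to 10.76. Hexa ranged from 9.04 in intestinal macrophages to 10.35 in F4/80hi cells at 4 weeks, the latter a mean of 9.39 and 11.31. None of these 7 passed the call in any comparison.

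Of the 4 sulfatases, which strip sulfate from glycolipids and glycosaminoglycans, Sgsh was the one called within the CNS. Its enzyme, sulfamidase, acts on heparan sulfate. Sgsh read 9.34, 8.69 and 9.23 in F4/80hi cells at 12 weeks, 8.92 and 10.40 at 4 weeks, and 7.71, 8.21, 8.90, 8.13 and 7.81 in naive microglia. The naive array at 8.90 is replicate 3, and the array at 10.40 is the F4/80hi array that stood apart with it. The difference from naive microglia was 1.13 ± 0.28 (adjusted p = 0.0106, limma) at 12 weeks and 1.21 (adjusted p = 4.85e-05) without that pair. At 4 weeks it was 1.38 ± 0.29 (adjusted p = 0.00403) and 0.87 (adjusted p = 0.0714) without them, with 1 F4/80hi array left, or 0.64 (adjusted p = 0.377) without F4/80hi replicate 2 alone. Among the arrays of the same batch the adjusted p was 0.0737.

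The 12-week call on Sgsh was also lost among CNS arrays alone (adjusted p = 0.108, limma), without naive replicate 1 (0.0795), without F4/80hi replicate 1 (0.0635) or replicate 3 (0.0507), and, at a difference of 0.93, without the batch term. Against F4/80low cells at 12 weeks, which read 8.14, 7.94 and 7.80, the difference was 1.12 ± 0.27 (adjusted p = 0.0117) and the groups did not overlap. This call was lost without F4/80hi replicate 1 (0.0686) or 3 (0.0548), without F4/80low replicate 3 (0.0596) and among CNS arrays alone (0.0585). The DTR arrays, at 7.39 and 7.22, read below every naive array, with a difference of -0.66 (95% interval -1.29 to -0.02, adjusted p = 0.562). F4/80low cells at 4 weeks read 8.75, 8.77 and 8.77 for Sgsh, above every naive array but replicate 3. They were also above F4/80hi replicate 2 at 12 weeks, at 8.69. Outside the CNS, Sgsh read 9.05 and 9.14 in RPM, 8.64 and 8.85 in intestinal macrophages and 8.10 to 8.66 in monocytes.

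Arsb set the CNS cells apart from the other macrophages. It read 9.60, 9.68, 11.24, 9.63 and 9.51 in naive microglia, 7.66 and 7.06 in RPM and 6.97 and 6.73 in intestinal macrophages. Naive microglia were higher by 2.77 ± 0.35 (adjusted p = 9.41e-07, limma) than RPM and by 3.28 ± 0.35 (adjusted p = 7.42e-08) than intestinal macrophages. Without the pair of arrays that stood apart these were 2.36 and 2.87. Monocytes, at 8.14 to 9.01, were higher than RPM, with an RPM difference of -1.53 ± 0.37 (adjusted p = 0.00328) that had an adjusted p of 0.0811 (difference -1.23) without RPM replicate 2. The difference of naive microglia from monocytes was 1.24 ± 0.26 (adjusted p = 0.000412), and 0.99 without naive replicate 3, with an adjusted p of 0.0756 among batch 2 arrays. Arsa, which desulfates the sulfatide of myelin, had group means from 8.29 in F4/80hi cells at 12 weeks to 9.31 in RPM, and Ids, iduronate sulfatase, from 9.55 to 10.48 in the same groups, with no call.

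Of the 10 membrane proteins 0 were called among CNS groups. Cd63, a tetraspanin of late endosomes and lysosomes, was the one that passed the adjusted p. It read 12.56, 12.92 and 12.78 in F4/80hi cells at 12 weeks and 11.96 to 12.06 in naive microglia. The difference of 0.74 ± 0.18 passed the adjusted p (0.00846, limma) at under 2-fold, as did the difference of 0.77 ± 0.17 (adjusted p = 0.00596) from F4/80low cells of the same time. The adjusted p became 0.0511 without F4/80hi replicate 2 and 0.0508 among batch 1 arrays for the former, and 0.0574 without F4/80low replicate 2 for the latter, or 0.121 with replicate number as a block. Monocytes read 9.37 to 10.07, so that naive microglia exceeded them by 2.31 ± 0.14 (adjusted p = 6.83e-13) and F4/80hi cells at 12 weeks by 3.05 ± 0.16 (adjusted p = 2.3e-13). RPM and intestinal macrophages exceeded monocytes by 1.55 and 2.21. Other repopulated groups also read above every naive array for Cd63, without a call. F4/80hi cells at 4 weeks read 12.46 and 12.73, F4/80low cells at 4 weeks 12.23, 12.51 and 12.37, and DTR microglia 12.33 and 12.10. F4/80low cells at 12 weeks, at 11.71 to 12.23, overlapped with the naive arrays.

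Of the other 9 membrane proteins, Cd68, Laptm4a and Npc1 were called against reference cells and 6 were called in 0 comparisons. Lamp1 and Lamp2, the main glycoproteins of the lysosomal membrane, had group means from 11.81 to 12.33 and from 11.12 to 11.41. Cd68, a macrophage glycoprotein of the LAMP family, and Laptm4a were higher in RPM than in monocytes, by 1.11 ± 0.17 (adjusted p = 1.54e-05, limma) and 1.01 ± 0.19 (adjusted p = 0.000216), the latter under 2-fold at 0.97 without the batch term, at 0.98 after median centring or without monocyte replicate 4, and at 0.99 without RPM replicate 1. Npc1, which exports cholesterol, was higher in naive microglia than in intestinal macrophages, by 1.09 ± 0.16 (adjusted p = 7.69e-06), and by 0.97 without naive replicate 3 or 0.92 without intestinal replicate 1. RPM also exceeded intestinal macrophages in Npc1, by 1.04 ± 0.18 (adjusted p = 0.000116), under 2-fold at 0.93 after quantile normalization, 0.90 without RPM replicate 2 and 0.87 without intestinal replicate 1. Scarb2, which carries glucocerebrosidase to the lysosome, ranged from 9.66 to 10.47 and Mcoln1, a cation channel, from 9.59 to 10.41, both lowest in monocytes. Laptm5 ranged from 11.24 to 11.91 and Cln3, the protein lost in juvenile Batten disease, from 10.20 to 10.81.

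The 5 lipid hydrolases and carriers gave 0 calls among CNS groups and 1 elsewhere. Smpd1, acid sphingomyelinase, read 6.49 and 6.95 in intestinal macrophages and 7.25 to 8.49 in naive microglia, a difference of 1.07 ± 0.33 (adjusted p = 0.0179, limma) that was 0.82 (adjusted p = 0.0694) without naive replicate 3, 0.84 (adjusted p = 0.195) without intestinal replicate 1 and 0.94 without the batch term. Npc2, the soluble partner of Npc1 in cholesterol export, was lower in naive microglia than in monocytes, by -0.70 ± 0.13 (adjusted p = 9.01e-05), under 2-fold. Psap, the precursor of the saposins that assist glycosidases, was among the flattest, with group means from 13.03 to 13.42. Asah1, acid ceramidase, ranged from 11.16 to 11.72 and Ppt1, a palmitoyl thioesterase, from 11.07 to 11.95.

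Both proteases had their lowest group mean in monocytes. Lgmn activates other lysosomal proteases by cleavage after asparagine. It read 9.48, 9.39, 9.21, 9.34 and 9.50 in monocytes and at least 12.53 on every array of every macrophage group. Naive microglia exceeded monocytes by 3.77 ± 0.09 (adjusted p = 5.8e-20, limma), which is 13.7-fold, F4/80hi cells at 12 weeks by 3.34 ± 0.11 (adjusted p = 4e-17), RPM by 3.13 and intestinal macrophages by 3.18. Within the CNS, Lgmn was 12.80, 12.67 and 12.60 in F4/80hi cells at 12 weeks and 13.04 to 13.22 in naive microglia. That difference of -0.44 ± 0.12 passed the adjusted p (0.0257) at under 2-fold, and its adjusted p was 0.153 among CNS arrays alone, 0.137 without naive replicate 1, and 0.0693 and 0.110 without F4/80hi replicate 2 or 3.

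Tpp1, a tripeptidyl peptidase lost in late infantile Batten disease, read 11.24 to 11.35 in naive microglia and 9.78 to 9.99 in monocytes, a difference of 1.41 ± 0.11 (adjusted p = 5.3e-11, limma). Intestinal macrophages, at 10.40 and 10.57, lay between, with a difference of 0.81 from naive microglia that passed the adjusted p (9.78e-05) at under 2-fold. Grn, progranulin, a secreted and lysosomal protein whose loss causes frontotemporal dementia, had group means from 12.22 in monocytes to 12.94 in F4/80low cells at 4 weeks and was called in 0 comparisons.

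The comparisons with cells from outside the CNS gave between 2 and 9 member calls each. Naive microglia had 6 members higher and 1 lower than monocytes, where 5.48% of transcripts were called higher and 9.15% lower, with a median member difference of 0.30 against 0.01 for all transcripts. After quantile normalization the counts were 8 and 0 and the median was 0.56. At any fold 18 members passed the adjusted p against monocytes, where 34.1% of transcripts did, 14 against RPM, where 31.4% did, and 14 against intestinal macrophages, where 26.7% did. Against RPM they had 1 higher (Arsb) and 1 lower (Galc), where 7.24% of transcripts were called higher and 8.51% lower. Against intestinal macrophages they had 4 higher and 1 lower, where 5.95% were called higher and 7.09% lower, and 2 higher and 1 lower without naive replicate 3 or without intestinal replicate 1. F4/80hi cells at 12 weeks had 5 members higher and 1 lower than monocytes, where 4.64% of transcripts were called higher and 9.61% lower. The 1 lower was Gla, by -1.07 (adjusted p = 0.000787, limma), and by -0.95 without F4/80hi replicate 2. At any fold 20 members passed the adjusted p, where 31.1% of transcripts did. The counts over 2-fold were 12 higher and 0 lower after quantile normalization, which moved the median member difference from 0.34 to 0.82. RPM had 8 higher and 1 lower than monocytes, where 5.02% were called higher and 6.73% lower, and 16 at any fold, where 21.1% of transcripts passed. Intestinal macrophages had 3 higher and 1 lower than monocytes, where 4.96% were called higher and 5.76% lower, and 9 at any fold, where 21.1% passed. RPM set against intestinal macrophages gave 2 higher (Galc and Npc1) and 1 lower (Gla), where 5.19% of transcripts were called higher and 5.70% lower, and 12 at any fold, where 19.0% passed. Neutrophil markers were high on the monocyte arrays and B and plasma cell markers on the intestinal arrays, as given above, and their part in these results was not tested.

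**Figure D5:**
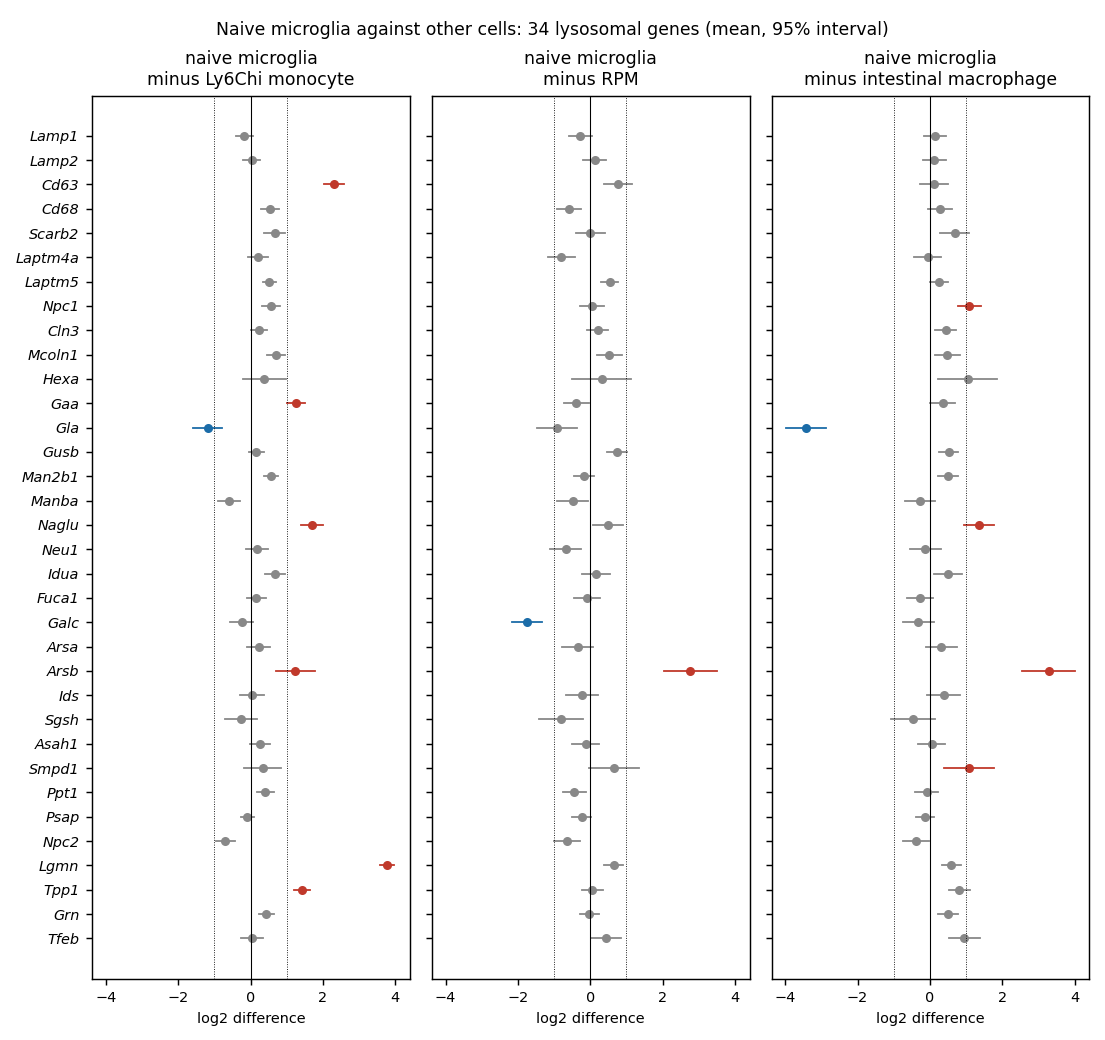
Log2 difference of naive microglia from monocytes, RPM and intestinal macrophages (points, with 95% intervals) for the 34 measured lysosomal genes, 1 panel each. Red marks genes higher and blue genes lower in naive microglia at adjusted p under 0.05 with over 2-fold, and dotted lines mark 2-fold. Lgmn lies at 3.77 in the monocyte panel, and Arsb at 3.28 and Gla at -3.43 in the intestinal panel.

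Tfeb itself had group means from 5.57 in intestinal macrophages to 6.56 in F4/80low cells at 12 weeks and was called in 0 comparisons. Its difference of naive microglia from intestinal macrophages, 0.95 (adjusted p = 0.000815, limma), passed the adjusted p at under 2-fold. Tfec, a relative of Tfeb, differed more between the cell types. Tfec was 5.0 ± 0.18 (SD, n = 5) in naive microglia, 5.02 ± 0.31 (n = 3) in F4/80low cells at 12 weeks, 7.70 ± 0.12 (n = 3) in F4/80hi cells at 12 weeks and 10.54 ± 0.09 (n = 5) in monocytes. The F4/80hi cells at 12 weeks thus lay between, higher than naive microglia by 2.78 (adjusted p = 1.17e-07, limma) and lower than monocytes by -2.79 (adjusted p = 3.91e-09). At 4 weeks the 2 F4/80hi arrays read 5.61 and 7.33. RPM were at 10.41 ± 0.11 (n = 2). Of the other relatives, Mitf was higher in naive microglia than in monocytes by 1.07 (adjusted p = 1.89e-06), and Tfe3 had group means from 9.31 to 10.20.

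Other genes of the organelle were summarised from lists. Of all transcripts 1.34% were called higher and 1.65% lower in F4/80hi cells at 12 weeks than in naive microglia. The 17 subunits of the V-ATPase, the pump that acidifies the lysosome, gave 0 calls between naive microglia and the 12-week F4/80hi cells, as did 12 genes of the Ragulator and Rag GTPases, which signal nutrients to mTORC1, and 12 genes of HOPS and membrane fusion. Of 9 genes of mannose 6-phosphate and related sorting, Sort1 was lower, by -1.20 (adjusted p = 5.79e-07, limma). Of 13 cathepsins, Ctse was higher by 3.79 (adjusted p = 9.25e-08), and Ctsf and Ctsl were lower by -1.62 and -1.46. Ctse was the cathepsin called in F4/80hi cells at 4 weeks, by 4.54, and in F4/80low cells at 4 weeks, by 2.81, both with higher neutrophil markers, whose part was not tested. At 12 weeks the mean of the neutrophil markers was 4.87 to 5.50 in F4/80hi cells, against 4.95 to 5.26 in naive microglia. Their part at 12 weeks was not tested either.

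Against the reference cells these lists had calls in both directions. Against monocytes, where 5.48% of all transcripts were called higher and 9.15% lower, naive microglia had 1 V-ATPase subunit higher (Atp6v0a1, by 1.83) and 4 lower (such as Atp6v1a, by -1.48). Of 13 cathepsins they had 4 higher and 2 lower than monocytes, with Ctsf at 5.35, Ctsl at 3.20 and Ctse at -2.65. Against RPM, where 7.24% were called higher and 8.51% lower, they had 1 Ragulator or Rag gene higher and 4 lower, the latter led by Rragd at -4.11 (adjusted p = 3.2e-17, limma), a Rag GTPase. Igf2r, the mannose 6-phosphate receptor that sends hydrolases to the lysosome, was lower in naive microglia than in RPM by -3.11 (adjusted p = 3.47e-12) and than in intestinal macrophages by -1.19. Sort1 was higher in naive microglia than in intestinal macrophages by 2.50.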

How the data were processed

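RNA of sorted mouse cells was hybridised to Mouse Gene 2.1 ST GeneChips (Affymetrix) after WT Pico amplification. The deposited log2 signals, 1 column for each of 27 arrays, were used as the authors normalised them. Partek is named in the submitters' processing notes, its version is not given in the sources used here, and neither is the normalisation. The authors' values had been adjusted for batch before deposit: the difference between the 2 labelled batches was the same in naive microglia and in monocytes to within 0.000133. The fit here took these adjusted values as if they were unadjusted. Its standard errors, intervals and p-values may therefore be too small, in particular for groups that lie in different batches. Batch 1 held the 12-week, DTR and some naive and monocyte arrays, and batch 2 the rest. Precision is limited by the number of arrays.

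Of 41345 rows, 2145 blank rows and 6955 rows listed at 0 on every array were left out, and 32245 were tested. Probes were named from the platform annotation, where 22761 tested rows have 1 symbol, 1683 several and 7801 none. All 9 groups and the batch were fitted with limma 3.58.1 in R 4.3.3 (lmFit and eBayes) and tested two-sided, p-values were adjusted by the Benjamini-Hochberg method over all rows of a comparison, and a call needs adjusted p under 0.05 and over 2-fold, the methods' thresholds. The fit was tested on simulated data. The value columns without a sample numbered 0.

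Members and gene lists were chosen with earlier results of these data known. Every measured member is named. Values on single arrays are given for members called among CNS groups, for up to 4 called members in each direction against the reference cells and for a few others chosen after their values were seen. Up to 4 genes a list are named, those of largest difference among those called. Alternatives changed the scaling, batch term, filter, variance estimate, arrays in the fit, row of a gene and fold threshold, left out each array, and blocked by replicate number. Same-numbered F4/80hi and F4/80low arrays did not deviate together at 12 weeks (correlations of -0.08, -0.10 and -0.06), nor both pairs at 4 weeks (0.28 and 0.00), so numbers were not taken as pairs. Leaving out the arrays that stood apart or were rich in neutrophil transcripts (mean marker signal above 9) was chosen after seeing the data. The 4-week arrays that remained still read above naive microglia for the neutrophil markers. Promoter letters were searched with Python 3 in the RefSeq windows.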

Additional observations from a re-analysis of the deposited data

Results flagged for a closer look

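In groups of 5 arrays, a member was set apart where the highest or lowest array's gap to the nearest other exceeded the 95% limit of Dixon's test relative to the group's range. This was applied to 68 sets of 5 arrays, the naive and the monocyte arrays of 34 members, and 8 were set apart. With 5 independent arrays chance sets apart about 1 in 20. These sets held technical replicates and batch-adjusted values, and all members shared the same arrays. The 8 of 68 therefore cannot be judged against that rate.

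Of the 8, 5 were naive replicate 3. It read 11.24 for Hexa against 9.45 to 9.69 on the other naive arrays, 11.24 for Arsb against 9.51 to 9.68, and 12.47 for Man2b1 against 12.18 to 12.21. It also read 8.21 for Npc1 against 7.74 to 7.82, and 11.62 for Laptm5 against 11.80 to 11.87, the only one of these that was low. Naive replicate 2 read 13.04 for Lgmn against 13.17 to 13.22. Among the monocytes, replicate 3 read 11.20 for Gusb against 11.25 to 11.27, and replicate 5 read 11.80 for Man2b1 against 11.60 to 11.65.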

How the results depend on the processing

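No member difference that passed the adjusted p among CNS groups or the call elsewhere changed direction under any alternative that was run, and the Galc calls in F4/80hi cells held in all of them. Centring the arrays on their median moved the median of all transcripts from 0.02 to -0.08 for F4/80hi cells at 12 weeks against monocytes, and by less elsewhere. Quantile normalization turned the median member difference of naive microglia from RPM from -0.05 to 0.09. Against naive microglia, F4/80hi cells at 12 weeks had 2 members called, 1 without the batch term and among CNS arrays alone, 5 with adjusted p alone and 1 to 2 with single arrays left out. At 4 weeks they had 2, 1 among batch 2 arrays, 1 without the pair of arrays that stood apart and 1 to 2 with single arrays left out. F4/80low cells at 4 weeks had 0, and 1 (Galc) without the batch term, with arrays centred on their median, with adjusted p alone, without that pair, without the arrays rich in neutrophil transcripts, and 0 to 1 with single arrays left out. DTR microglia had 1, 0 among CNS or batch 1 arrays, and 0 to 1 with single arrays left out. The F4/80hi to F4/80low comparison gave 2 at 12 weeks, 1 among CNS arrays, 4 with adjusted p alone and 1 to 2 with single arrays left out, and at 4 weeks 0, 2 without the arrays rich in neutrophil transcripts and 0 to 2 with single arrays left out. The change of that difference between times gave 0, 1 after quantile normalization, 1 without the pair of arrays and 0 to 1 with single arrays left out.

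With adjusted p alone, naive microglia had 18 members called against monocytes, 14 against RPM and 14 against intestinal macrophages. F4/80hi cells at 12 weeks, RPM and intestinal macrophages then had 20, 16 and 9 against monocytes, and RPM against intestinal macrophages 12. Naive microglia against intestinal macrophages gave 5, 3 without the pair of arrays and 3 to 7 with single arrays left out. After quantile normalization F4/80hi cells at 12 weeks had 12 against monocytes, all higher, and naive microglia had 8 higher and 0 lower in place of 6 and 1. The cause of these shifts was not tested. With replicate number as a block, the 12-week comparison of F4/80hi with F4/80low gave 2 calls, Galc at 1.75 (adjusted p = 0.00127, limma) and Sgsh at 1.12 (adjusted p = 0.0217), and gave 0 at 4 weeks. The groups of 2 or 3 arrays limit all of these counts.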
